A study of Mus musculus with 14 samples.

Results

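The insulin signalling components described here are 10 genes, Insr, Irs1, Irs2, Pik3r1, Akt1, Akt2, Foxo1, Foxo3, Gsk3b and Tsc2, followed in mouse liver on 2 diets. Their members on the array are all probe sets, groups of short probes read as 1 value, that the platform's gene table lists with exactly 1 of these symbols. There are 30 of them among 45101 on the array, and 3 genes (Irs1, Irs2 and Tsc2) have 1 each. Livers came from 14 male CBA/J mice, an inbred strain housed 1 to a cage on 84 kcal a week of food made after the AIN93M formula, a purified maintenance diet. Of these, 7 ate the control diet and 7 a diet with an extract of krill powder, matched in total protein and total lipid but with other amino acids and fatty acids. The diets began at 2 months of age and lasted 3 months, and each liver was hybridised to its own Affymetrix array.

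Insulin binds its receptor on the hepatocyte, a tyrosine kinase that phosphorylates docking proteins. These recruit phosphoinositide 3-kinase, whose lipid product brings AKT kinases to the membrane. AKT then restrains FOXO transcription factors, glycogen synthase kinase 3 and the tuberous sclerosis complex, so that glucose output falls while glycogen, lipid and protein synthesis rise. Much of this control acts on phosphate groups and on the place of proteins in the cell, which an RNA array does not read.

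The signal of the brightest probe set of 8 of the 10 genes fell on the krill diet, and none rose. Tsc2 was 8.03-fold lower, a size that depends on the added constant, Foxo1 4.53-fold, Akt1 3.39-fold and Gsk3b 3.04-fold. Foxo3, Irs2, Pik3r1 and Irs1 were 2.38-fold, 2.33-fold, 1.75-fold and 1.49-fold lower. Insr and Akt2 did not pass the test, with log2 changes of -0.47 and -0.39. Changes are krill minus control on the scale log2(signal + 16), tested with limma over 45037 probe sets, and a call is a Benjamini-Hochberg adjusted p under 0.05. Of 18193 genes read by their brightest probe set (the highest mean over all 14 arrays), 14.7% were called lower and 19.2% higher. The median change of the 10 genes was -1.23, against 0.32 over all genes. Since the tissue was measured in bulk, fewer cells of a type and less RNA per cell cannot be told apart.

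**Figure D1:**
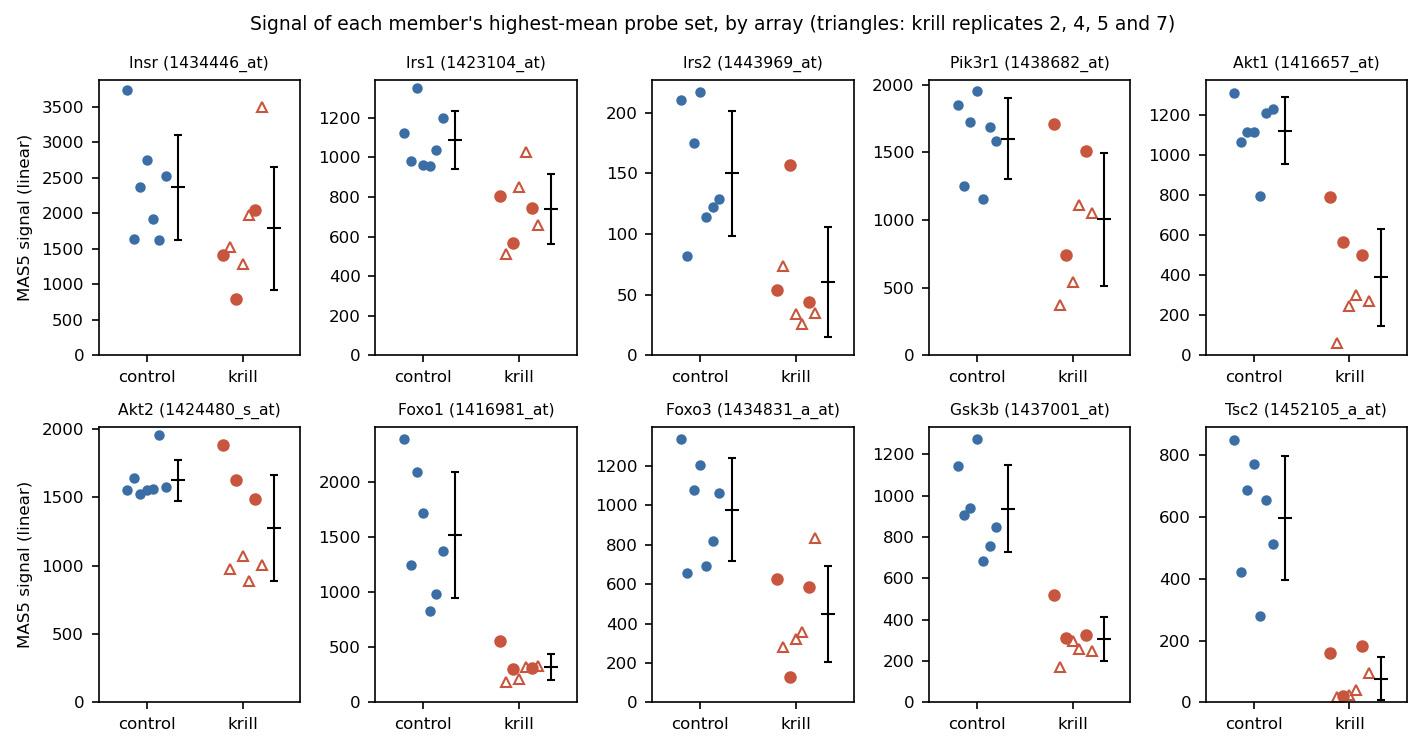
Each panel plots the linear signal of 1 gene's brightest probe set in 7 control and 7 krill arrays, with the mean and SD beside each diet; open triangles are krill replicates 2, 4, 5 and 7. The diets do not overlap for Akt1, Foxo1, Gsk3b and Tsc2, while for Akt2 the 4 triangles and krill replicate 6 lie below the controls and krill replicates 1 and 3 do not.

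Array quality was unequal between the diets as well, and this bears on every value that follows. The 3'/5' index, the mean log2 ratio of signal from the 3' over the 5' end of the actin and pyruvate carboxylase transcripts, ran from 1.56 to 2.28 in control and from 2.44 to 3.12 in krill arrays (two-sided p = 0.000583 in an exact permutation test, adjusted p = 0.000777 over 4 measures). Hybridisation spike-ins, as mean log2 signal, stood at 12.68 ± 0.19 (SD, n = 7) on control arrays. On krill arrays they stood at 13.48 ± 0.63 (SD, n = 7), a higher level (exact permutation p = 0.00932, adjusted p = 0.00932). Krill replicates 2, 4, 5 and 7 stood at 13.90 to 14.09, above every control array. Hepatocyte markers were bright in both diets, with a summed signal of 222239 to 322941 in control and 284060 to 582736 in krill arrays over 7 genes, of which 2 were called higher and 1 lower. Adipocyte markers summed to 22.2 to 393 in control and 82.9 to 508 in krill arrays, with 1 of 3 higher, and Adipoq, Lep and Retn all lay in the dimmer 50% of probe sets. Sums over Kupffer cell markers were 7026 to 9417 and 8282 to 16181, with 3 of 7 called higher and 1 lower. Sums over sinusoidal endothelial markers were 9621 to 13095 and 8020 to 19886, with 1 of 6 higher and 2 lower, and over stellate cell markers 12303 to 17380 and 11616 to 16423, with 1 of 6 higher. Cholangiocyte sums were 201 to 328 and 171 to 730 with 1 of 4 higher, lymphocyte sums 490 to 689 and 608 to 1406 with 1 of 5 higher, and erythroid sums 3269 to 3985 and 2023 to 8151 with none of 3 called. Skeletal muscle sums were 163 to 477 and 297 to 814, with 2 of 4 higher. Pancreatic markers summed to 2495 to 5046 and 6065 to 19238, nearly all of it from Cela1, with 1 of 4 higher, and Ins2, Gcg and Cpa1 lay in the dimmer 50%. The part of array quality and of these cell markers in the results was not tested.

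Without krill replicates 2, 4, 5 and 7, 6 of the 10 genes were called lower: Irs1, Akt1, Foxo1, Foxo3, Gsk3b and Tsc2. Over all genes 10.6% were called lower in that fit. The median of the 10 genes was then -0.84, against 0.02 over all genes. With all arrays and a model term for the spike-ins, Foxo1, Gsk3b and Tsc2 were called lower, and Irs1, Irs2, Pik3r1, Akt1 and Foxo3 lost their calls (adjusted p from 0.0702 to 0.774 in limma). In that fit 2702 of 45037 probe sets were called in either direction, against 12835 with diet as the only term. With the 3'/5' index as a term in the model, limma called 0 of 45037 probe sets, and 9.31% had an unadjusted p under 0.05. Of the 30 member probe sets 11 had such a p, and of the 10 brightest 5. The index separates the diets fully, so it and the diet can hardly be told apart in this design.

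The receptor gene Insr had a signal of 1630 to 3734 with a median of 2365 in control arrays on its brightest probe set, 1434446_at. In krill arrays it ranged from 793 to 3504 with a median of 1526. The diets overlapped. Of the 7 krill arrays 4 lay below every control array, while krill replicate 7, at 3504, lay above all control arrays but 1. The log2 change of -0.47 (SE 0.25) did not pass (adjusted p = 0.158 in limma). With krill replicates 2, 4, 5 and 7 left out it was -0.78 (adjusted p = 0.0635 in limma). Without krill replicate 7 alone it was -0.65 (adjusted p = 0.0373 in limma), the only 1 of 14 fits with 1 array left out that passed. Of the other Insr probe sets 1450225_at was called higher at 1.11 (SE 0.42, adjusted p = 0.0481 in limma), the only rise among the 30. It was dim, at 30.2 to 143 in control and 42 to 474 in krill arrays. Its highest values were in krill replicates 2, 4, 5 and 7, and without them it stood at 0.27 (adjusted p = 0.777 in limma). The third Insr probe set, 1421380_at, stood at 0.70 (adjusted p = 0.273 in limma).

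Irs1 and Irs2 encode the main docking proteins of the receptor in liver. Irs1 signal ran from 957 to 1350 with a median of 1038 in control livers and from 512 to 1029 with a median of 746 in krill livers. In 6 of 7 krill arrays it lay below every control array, the exception being krill replicate 5 at 1029. On the log2 scale the change was -0.57 (SE 0.17, adjusted p = 0.0187 in limma), and -0.62 without krill replicates 2, 4, 5 and 7, where it still passed (adjusted p = 0.0161 in limma). With quantile normalization it was -0.32 (adjusted p = 0.197 in limma). Irs2 was read by 1 dim probe set that lies in the lower 50% of signal, so its values are less sure. Its signal was 82.1 to 217 with a median of 129 in control and 25.4 to 157 with a median of 44.2 in krill arrays. Krill replicate 3, at 157, stood inside the control range and the other 6 below it. Krill minus control was, in log2, -1.22 (SE 0.38, adjusted p = 0.0191 in limma), and -0.82 without those 4 arrays, where it no longer passed (adjusted p = 0.198 in limma). The within-array difference of Irs1 and Irs2 shifted by 0.65 between the diets, which did not pass (two-sided p = 0.135 in an exact permutation test, adjusted p = 0.135 over 3 pairs of relatives).

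The promoters of the pair are shown because both docking genes fell and both windows hold the same neighbouring motifs. Each line gives the 250 bases before the RefSeq start site (GRCm38.p6, minus strand), with Irs1 at chr1:82291440-82291689 and Irs2 at chr8:11008930-11009179. Capitals mark CACGTG, the E-box, and TGTTTTG, the core of the insulin response sequence known from Igfbp1.
Irs1: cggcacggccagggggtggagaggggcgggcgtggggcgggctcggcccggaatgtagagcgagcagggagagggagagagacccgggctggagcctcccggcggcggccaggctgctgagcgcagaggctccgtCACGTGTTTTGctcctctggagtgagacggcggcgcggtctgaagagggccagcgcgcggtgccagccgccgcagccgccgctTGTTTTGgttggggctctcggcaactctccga
Irs2: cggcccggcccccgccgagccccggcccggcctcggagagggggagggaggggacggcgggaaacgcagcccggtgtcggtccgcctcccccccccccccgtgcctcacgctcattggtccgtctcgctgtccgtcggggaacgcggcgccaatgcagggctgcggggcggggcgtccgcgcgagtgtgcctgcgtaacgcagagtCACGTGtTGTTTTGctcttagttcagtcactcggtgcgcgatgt

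In Irs1 the E-box at positions -115 to -110 shares its last 2 letters with TGTTTTG at -111 to -105, and a further TGTTTTG stands at -32 to -26. In Irs2 the E-box at -44 to -39 is followed after 1 base by TGTTTTG at -37 to -31. On both strands TGTTTTG was found in 5.56% and CACGTG in 6.02% of 32851 windows of this length. The pair in this order, overlapping by 2 letters up to 1 base apart, was found in 7 windows, a count made after these promoters had been seen. The FOXO motif GTAAACA, in 3.17% of windows, was found in 1 of 14 windows of the members, an Akt1 window, and the sterol motif TCACNCCAC, in 1.05% of windows, in none. RefSeq windows were listed for 9 of the 10 genes, all but Insr. A match describes the letters and shows no binding.

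Pik3r1 encodes the regulatory subunit of phosphoinositide 3-kinase, in several protein forms. Its brightest probe set, 1438682_at, read 1154 to 1956 with a median of 1691 in control and 371 to 1711 with a median of 1049 in krill arrays. Krill replicates 1 and 6, at 1711 and 1508, lay within the control range and the other 5 below it. The log2 change was -0.81 (SE 0.26, adjusted p = 0.0267 in limma), and -0.34 without krill replicates 2, 4, 5 and 7 (adjusted p = 0.391 in limma). Probe sets 1425515_at and 1451737_at were called lower at -1.26 (SE 0.30) and -1.73 (SE 0.40), and 1425514_at at -0.41 did not pass (adjusted p = 0.293 in limma). Without those 4 arrays none of the 4 was called. There 1425515_at, 1451737_at and 1425514_at stood at -0.54, -0.64 and 0.29. That fit has 3 krill arrays in place of 7. The SEs of these 3 probe sets were 0.23, 0.28 and 0.20 in it, against 0.30, 0.40 and 0.29 with all arrays. With 1 array left out at a time, 1425515_at and 1451737_at kept their calls in all 14 fits and 1438682_at in 10. With a model term for the spike-ins 1438682_at stood at -0.24 (adjusted p = 0.774 in limma).

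Akt1 and Akt2 encode closely related kinases, of which Akt2 is the form most tied to insulin's metabolic action. Akt1 signal on 1416657_at was 793 to 1310 with a median of 1114 in control and 60.5 to 789 with a median of 298 in krill arrays. The diets did not overlap, although krill replicate 1, at 789, came within a few units of the lowest control array at 793. On the log2 scale the change was -1.76 (SE 0.35, adjusted p = 0.000756 in limma), and -0.86 without krill replicates 2, 4, 5 and 7 (adjusted p = 0.00412 in limma). A second Akt1 probe set, 1425711_a_at, was called lower at -2.45 (SE 0.52, adjusted p = 0.00148 in limma), and -1.05 without those arrays. With a model term for the spike-ins 1416657_at stood at -0.74 and did not pass (adjusted p = 0.251 in limma). The dimmer 1440950_at and 1442759_at both stood at 0.60 and did not pass (adjusted p = 0.131 and 0.246 in limma).

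Akt2 signal on 1424480_s_at was 1526 to 1960 with a median of 1559 in control arrays, the smallest relative spread of the 10 genes. In krill arrays it was 888 to 1882 with a median of 1074. Krill replicates 2, 4, 5 and 7 read 976, 1074, 888 and 1003, and replicates 1, 3 and 6 read 1882, 1628 and 1485. Krill minus control was, in log2, -0.39 (SE 0.18, adjusted p = 0.097 in limma) with all arrays and 0.03 (adjusted p = 0.919 in limma) without those 4. Its other probe sets stood at -0.28 and 0.49, and neither passed. On their brightest probe sets Akt1 moved further than Akt2 within the same arrays. The log2 difference of 1416657_at minus 1424480_s_at went from -0.54 ± 0.24 (SD, n = 7) on the control diet to -1.91 ± 0.83 (SD, n = 7) on krill, with all 7 krill arrays below all 7 control arrays. That shift of -1.37 passed (two-sided p = 0.000583 in an exact permutation test, the smallest that 3432 assignments allow, adjusted p = 0.00175 over 3 pairs). Without krill replicates 2, 4, 5 and 7 it was -0.89 (exact permutation p = 0.00833, the smallest that 120 assignments allow). The dimmer Akt1 probe sets at 0.60 do not share this order, and no other pair of Akt1 and Akt2 probe sets was tested.

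Tsc2 encodes tuberin, which with Tsc1 switches off the small GTPase Rheb and so restrains the TOR complex that drives protein synthesis. Its signal was 279 to 849 with a median of 654 in control arrays. In krill arrays it was 18.8 to 182 with a median of 40.2. The krill values in order of replicate number were 160, 18.8, 19.3, 22.6, 40.2, 182 and 93.8. All 7 lay below all control arrays, and 3 of them were near the added constant of 16, so the size of the fall depends on that constant. The log2 change was -3.01 (SE 0.41, adjusted p = 2.33e-05 in limma), and -2.44 without krill replicates 2, 4, 5 and 7 (adjusted p = 0.00153 in limma). With a constant of 1 it was -3.43 and with 64 it was -2.31, and both passed. It was -3.07 with quantile normalization and -2.30 with a model term for the spike-ins (adjusted p = 0.00902 in limma). Spike-in levels of krill replicates 1, 3 and 6, at 12.71, 12.91 and 12.83, lay within the control range of 12.40 to 12.96. Tsc2 read 160, 19.3 and 182 in these arrays, whose 3'/5' index lay above that of every control array.

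Gsk3b encodes glycogen synthase kinase 3 beta, which AKT inhibits and which itself inhibits glycogen synthase. Its brightest probe set, 1437001_at, read 685 to 1276 with a median of 907 in control and 173 to 519 with a median of 299 in krill arrays. The diets did not overlap. On the log2 scale the change was -1.60 (SE 0.22, adjusted p = 2.41e-05 in limma), and -1.26 without krill replicates 2, 4, 5 and 7 (adjusted p = 0.00104 in limma). Of its 6 probe sets 3 were called lower, the others of these being 1451020_at at -1.85 (SE 0.42) and 1439931_at at -2.22 (SE 0.38). The remaining 3 stood at -0.42, -0.34 and 0.61 and did not pass (adjusted p from 0.143 to 0.356 in limma). The first of them, 1454958_at, was called lower at -0.86 without those 4 arrays (adjusted p = 0.00438 in limma).

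Foxo1 encodes the transcription factor through which insulin chiefly lowers the gluconeogenic program of the hepatocyte. On 1416981_at its signal was 826 to 2384 with a median of 1374 in control and 189 to 557 with a median of 316 in krill arrays. Krill replicate 1, at 557, was the highest krill array and still below the lowest control array. Krill minus control was, in log2, -2.18 (SE 0.25, adjusted p = 7.28e-06 in limma), and -1.88 without krill replicates 2, 4, 5 and 7 (adjusted p = 0.000653 in limma). On 1416982_at the signal went from a median of 904 to 356, a log2 change of -1.25 (SE 0.22, adjusted p = 0.000314 in limma). On 1416983_s_at it went from a median of 1008 to 730, a log2 change of -0.45 (SE 0.20) that did not pass (adjusted p = 0.0839 in limma). The platform's table lists these 3 probe sets under the same sequence record. The dim 1456529_at stood at 0.54 (adjusted p = 0.413 in limma).

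**Figure D2:**
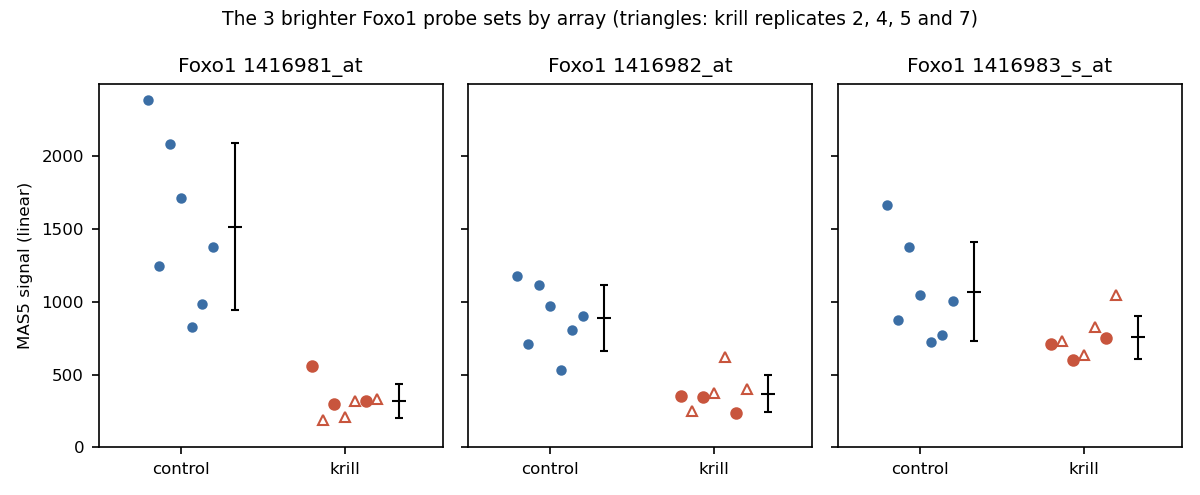
Linear signal of the 3 brighter Foxo1 probe sets in 7 control and 7 krill arrays, with the mean and SD beside each diet and krill replicates 2, 4, 5 and 7 as open triangles. The same animals give separate diets on 1416981_at and overlapping diets on 1416983_s_at, where krill arrays run from 603 to 1045 and control arrays from 725 to 1668.

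The disagreement of the Foxo1 probe set 1416983_s_at with 1416981_at was larger than the spread between arrays. The log2 difference of 1416983_s_at minus 1416981_at went from -0.47 ± 0.17 (SD, n = 7) on the control diet to 1.26 ± 0.50 (SD, n = 7) on krill. No krill array was as low as the highest control array (two-sided p = 0.000583 in an exact permutation test, adjusted p = 0.00466 over 16 pairs of probe sets). With krill replicates 2, 4, 5 and 7 left out the shift of 1.73 was 1.30 (exact permutation p = 0.00833). For 1416982_at minus 1416981_at the shift was 0.93 (exact permutation p = 0.00408, adjusted p = 0.0107), with 5 of 7 krill arrays above every control array. Without krill replicates 2, 4, 5 and 7 it was 0.43 (exact permutation p = 0.075). A single fold change for Foxo1 therefore depends on the probe set read.

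Foxo3 encodes a second FOXO factor, best known for stress resistance and autophagy genes. On 1434831_a_at its signal was 658 to 1337 with a median of 1061 in control and 130 to 836 with a median of 360 in krill arrays. Only krill replicate 7, at 836, lay within the control range. The log2 change was -1.25 (SE 0.30, adjusted p = 0.00392 in limma), and -1.33 without krill replicates 2, 4, 5 and 7 (adjusted p = 0.0184 in limma). On 1434832_at the diets did not overlap, at 425 to 966 in control and 145 to 350 in krill arrays, a log2 change of -1.29 (SE 0.24, adjusted p = 0.000436 in limma). The dim 1450236_at stood at -0.15 (adjusted p = 0.763 in limma). A further probe set that the table lists for Foxo3 together with another gene was left out. Foxo1 fell further than Foxo3 on their brightest probe sets, while 1416983_s_at of Foxo1, at -0.45, stood above both of the brighter Foxo3 probe sets. The within-array difference shifted by -0.93 (two-sided p = 0.0128 in an exact permutation test, adjusted p = 0.0192 over 3 pairs). Without krill replicates 2, 4, 5 and 7 the shift was -0.55 and did not pass (exact permutation p = 0.183).

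Over all probe sets of the 10 genes 15 of 30 were called lower, 1 higher and 14 neither. Over all probe sets tested 12.5% were called lower and 16% higher. Of the 30, 25 lay in the brighter 50% of probe sets, and 14 of these were lower, against 23.1% of all probe sets there. The other 5 gave 1 lower call, that of Irs2, and 4 without a call. The median change was -0.81 in the brighter group and 0.54 in the dimmer one, against 0.32 over all probe sets and 0.0 over the brighter ones. With krill replicates 2, 4, 5 and 7 left out, 12 of the 30 were called lower and none higher, and 11 of these 12 were among the 15. In 4 of the 10 genes, Akt1, Foxo1, Gsk3b and Tsc2, no krill array reached the lowest control array on the brightest probe set, which held for 4.96% of all genes.

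**Figure D3:**
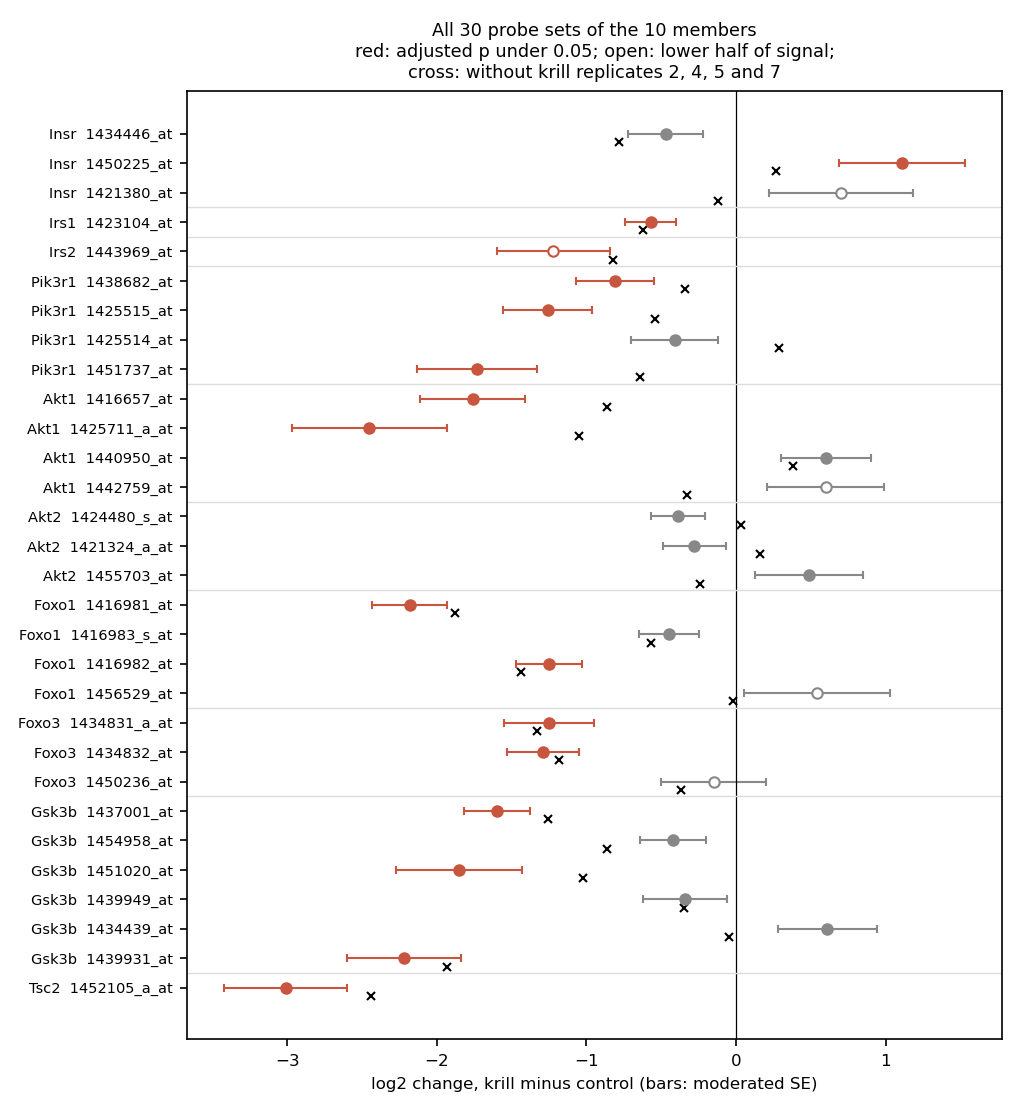
Log2 change, krill minus control, of all 30 probe sets with the moderated standard error, ordered by gene and, within a gene, from the brightest to the dimmest. Red points passed the test, open points lie in the dimmer 50% of signal and crosses give the change without krill replicates 2, 4, 5 and 7; Akt1, Foxo1 and Gsk3b each spread from below -2 to above 0.

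Of 16 pairs of a brighter probe set with the brightest of its gene, 8 changed by unequal amounts (exact permutation test, adjusted p under 0.05 over the 16 pairs), in 5 of 7 genes. With krill replicates 2, 4, 5 and 7 left out, 4 of these 8, in Akt1, Foxo1 and Gsk3b, had an unadjusted exact permutation p under 0.05. In Akt1 the difference of 1440950_at minus 1416657_at shifted by 2.36 (exact permutation p = 0.00117, adjusted p = 0.00468), a shift of 1.24 where krill replicates 2, 4, 5 and 7 were left out. In Gsk3b 1434439_at and 1439949_at shifted by 2.21 and 1.26 against 1437001_at (exact permutation adjusted p = 0.00468 and 0.00466), and by 1.21 and 0.90 without those arrays. Gsk3b 1454958_at shifted by 1.18 against 1437001_at (exact permutation adjusted p = 0.00931), and by 0.39 without those arrays (exact permutation p = 0.0833). In Insr 1450225_at shifted by 1.59 against 1434446_at (exact permutation adjusted p = 0.0107), and by 1.05 without those arrays (exact permutation p = 0.0917). In Pik3r1 1451737_at shifted by -0.93 against 1438682_at (exact permutation adjusted p = 0.0256), and by -0.30 without those arrays. The pairs of Akt2 and Foxo3 did not pass. Probe sets 1440950_at, 1434439_at and 1450225_at lay at percentiles 65.2, 57.6 and 56.0 of mean signal. The brightest probe sets of the same genes lay at 83.9, 81.7 and 92.3. Of the other pairs that passed, 1416983_s_at, 1416982_at, 1454958_at, 1451737_at and 1439949_at lay at 85.9, 81.9, 78.6, 70.5 and 61.6. The brightest probe sets of Foxo1 and Pik3r1 lay at 86.0 and 89.1. The place of each probe set in its transcript was not analysed here. The part of that place and of signal level in these shifts was not tested.

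By array, the 10 brightest probe sets lay below the lowest control value in 8 to 10 genes in each of the 7 krill arrays. In krill replicates 2 and 4 all 10 did so, and in replicates 1, 3, 5, 6 and 7 it was 8. Over all genes the share below the control range was 21.5% to 25.4% in these arrays. None of the 10 lay above the control range in any krill array, although 16.2% to 49.2% of all genes did. These shares are over genes of any brightness, and none was taken at the brightness of the members. The median signal of an array was 88.5 to 109 in control and 81.2 to 205 in krill arrays. Measured against the other 6 control arrays, control replicate 5 had 6 of the 10 genes below their range and control replicate 1 had 5 above it.

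Around the members, 110 other genes of the pathway were measured, of which 39 fell, 11 rose and 60 did not pass, with a median of -0.37. Over all genes 14.7% fell and 19.2% rose, with a median of 0.32, and the counts of each list stand beside those shares. Of the 110 genes 100 lay in the brighter 50% of probe sets, where 23.1% of probe sets fell. Without krill replicates 2, 4, 5 and 7, 29 fell and 4 rose, with a median of -0.41. Among receptor and docking proteins 5 of 17 fell and 2 rose. Ceacam1, which promotes insulin clearance in liver, fell to 336 ± 336 (SD, n = 7) from a control signal of 3782 ± 1480 (SD, n = 7), on the log2 scale -3.79 (SE 0.41, adjusted p = 4.43e-06 in limma), with 7 of its 8 probe sets called lower. Grb14, an adaptor that inhibits the receptor, changed by -0.57 (SE 0.16), Ptpn1, a phosphatase that removes its phosphate groups, by -0.64 (SE 0.20), and the adaptors Shc1 and Sh2b1 by -0.72 and -0.87. Without those 4 arrays Sh2b1 and Ceacam1 passed, at -0.78 and -3.05, and Shc1, Grb14 and Ptpn1 did not. Igf1r, the related growth factor receptor, stood at 0.68 (adjusted p = 0.115 in limma), while 1 of its 5 probe sets was called higher.

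Of 11 genes of phosphoinositide 3-kinase and its phosphatases 2 fell and 1 rose. The catalytic subunit gene Pik3ca changed by -0.62 (SE 0.22), and stood at -0.03 without krill replicates 2, 4, 5 and 7. The regulatory subunit gene Pik3r2 changed by -0.61 (SE 0.23) and stood at -0.82 there, while Pik3cd rose by 0.85 (SE 0.25) and stood at 0.29 there and at 0.06 with spike-in scaling. Inpp5d, a lipid phosphatase of blood cells, stood at 0.65 (adjusted p = 0.153 in limma). Among 12 kinases and phosphatases around AKT 4 fell and 3 rose. Pdpk1, the kinase that activates AKT, stood at 0.47 (adjusted p = 0.125 in limma), while 1 of its 2 probe sets was called lower. The phosphatase subunit Ppp2r1a fell by 1.11 on the log2 scale and the catalytic subunit Ppp2ca of the same enzyme rose by 0.91 (SE 0.17), which was 0.11 with arrays scaled on the spike-ins. The atypical protein kinase C gene Prkcz changed by -1.38 (SE 0.35) and the pseudokinase Trib1 by -1.58 (SE 0.40), and without those 4 arrays neither passed. Of the 2 Trib1 probe sets 1 was called lower and 1 higher.

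In the TOR complexes and their outputs 7 of 21 genes fell and 3 rose. Mapkap1, a subunit of the second TOR complex that acts on AKT, changed by -1.46 (SE 0.30), the translation repressor Eif4ebp2 by -1.70 (SE 0.27), the cap-binding factor Eif4e by -1.29 (SE 0.26) and the AMP kinase subunit Prkaa2 by -1.20 (SE 0.23). With krill replicates 2, 4, 5 and 7 left out these stood at -0.53, -1.51, -0.50 and -0.58 and still passed. Tsc1, the partner of tuberin, stood at -0.62 (adjusted p = 0.0789 in limma), and fell in the fit without those arrays, at -1.0 (adjusted p = 0.0344 in limma). Rheb, the GTPase that tuberin switches off, rose by 0.53 (SE 0.15, adjusted p = 0.013 in limma), with no krill array as low as any control array, although it stood at -0.27 with arrays scaled on the spike-ins. Mtor itself stood at -0.29 (adjusted p = 0.381 in limma).

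Of 16 other AKT substrates and FOXO partners 7 fell and 1 rose. Gsk3a, the paralog of Gsk3b, fell to 625 ± 99.9 (SD, n = 7) from a control signal of 1569 ± 317 (SD, n = 7), on the log2 scale -1.30 (SE 0.17, adjusted p = 1.67e-05 in limma), and -1.25 without krill replicates 2, 4, 5 and 7. Liver glycogen synthase, Gys2, changed by -1.67 (SE 0.28), and with those arrays left out the value was -0.76. The 14-3-3 gene Ywhag, whose product holds phosphorylated FOXO in the cytosol, changed by -1.02 (SE 0.24), and the CREB coactivator Crtc2 by -1.87 (SE 0.40). In the MAP kinase branch 4 of 10 genes fell and none rose. Map2k2 changed by -2.07 (SE 0.40), Braf by -1.06 (SE 0.21), Nras by -0.78 (SE 0.23) and Ptpn11 by -0.68 (SE 0.20). Without those arrays Map2k2 stood at -0.83 and Braf at -0.87, and Nras and Ptpn11 no longer passed.

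Transcripts known to answer to this pathway were read in lists for either direction of insulin's action. Of 14 genes known to be raised by FOXO1 or lowered by insulin 5 fell, 1 rose and 8 did not pass, with a median of -0.67. With krill replicates 2, 4, 5 and 7 left out 4 fell and none rose, with a median of -0.33. The gluconeogenic gene Pck1 changed by -2.03 (SE 0.33), and its value was -1.11 with krill replicates 2, 4, 5 and 7 left out. Of its 3 probe sets 2 were called lower and 1 higher. Cited2 changed by -1.09 (SE 0.18) and the coactivator Ppargc1a by -0.81 (SE 0.22). Igfbp1, a classical FOXO1 target, stood at -0.71 (SE 0.50, adjusted p = 0.279 in limma), and at -0.02 with those arrays left out. G6pc, the glucose-6-phosphatase gene, stood at -0.62 (adjusted p = 0.0553 in limma). Of 12 genes known to be raised by insulin 8 fell and none rose, with a median of -1.09. Leaving those arrays out, 4 fell, with a median of -0.84. Srebf1 changed by -1.36 (SE 0.24), Mlxipl by -2.70 (SE 0.26), the pyruvate kinase gene Pklr by -1.26 (SE 0.20) and Nr0b2 by -1.84 (SE 0.45). The first 3 stood at -1.49, -2.55 and -1.18 without those arrays, and passed there. The calls of Nr0b2, Fasn, Ppp1r3b and Ppp1r3c were lost, at -0.78, -1.25, -0.28 and -0.91, the last 3 of these being named after their values were seen.

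**Figure D4:**
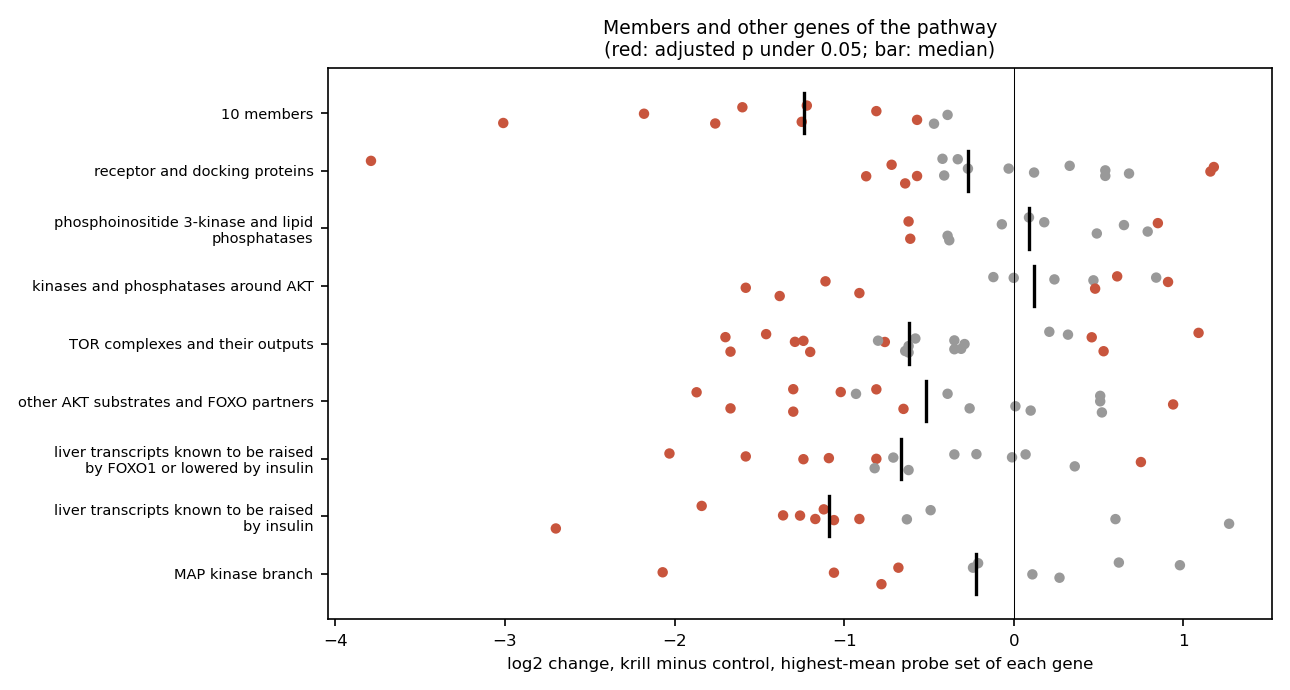
Log2 change, krill minus control, of the brightest probe set of the 10 members and of the other genes of the pathway by list, with red points past the test and a bar at each median. The members' median is -1.23, and the lists' medians run from -1.09 for transcripts raised by insulin to 0.12 for kinases and phosphatases around AKT.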

How the data were processed

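Liver total RNA of 14 mice was labelled as biotinylated cRNA and hybridised to 1 array per mouse, per the labels' protocols. The deposited values are linear signal intensity per probe set, made with MAS5 per the submitters' processing notes. The mean of each array without the lowest and highest 2% of probe sets was 500.0 in the deposited intensity table, so every array shares a mean. No scanner files or detection calls were used, so no probe set could be marked absent.

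The table held 64 control probe sets, which were left out. Of the other 45037, the gene table lists 34945 with 1 symbol, 932 with several and 9160 with none; 0 symbols needed an update from RefSeq. All 45037 were fitted as log2(signal + 16) with limma 3.58.1 in R 4.3.3 (lmFit, eBayes with a trend), with diet as the only term, and adjusted by Benjamini-Hochberg over all of them. No filter on signal was used, because the members are all probe sets of the genes. Added constants understate changes of dim genes. A gene is represented by its probe set with the highest mean. Within-array differences were tested by exact permutation in Python 3.11.15 with numpy 2.4.6. Outcomes in pathway lists are counts and medians. Members, lists and the 4 krill arrays left out were chosen with earlier results of these data known. Named are all members, up to 4 genes a list with the smallest p, and Igfbp1, Pck1, G6pc, Srebf1, Pdpk1, Gsk3a, Tsc1, Mtor, Rheb, Igf1r and Ptpn1 whatever their p; of the 124 genes written, 14 are not analysed here. The fit was tested on simulated data. Alternatives were other constants, normalizations, signal filters, gene summaries and variance models, array quality terms, a replicate block and each array left out. The labels do not say whether same-numbered mice were matched. The spread behind each p-value holds both mouse and array differences. The number of arrays limits the precision.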

Additional observations from a re-analysis of the deposited data

Results flagged for a closer look

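Among 60 groups of 7 arrays (30 probe sets in 2 diets), 8 held an array whose gap to its nearest neighbour was past Dixon's 95% critical value. About 1 in 20 groups of independent, normally distributed values pass it. The values here are linear signals in groups that share arrays, so no excess over that rate can be read from the count. In Irs2, krill replicate 3 read 157 and the next krill array 73.7. In Foxo1 on 1416981_at, krill replicate 1 read 557 and the next krill array 333. The same array read 154 in Gsk3b on 1439931_at, where the next was 36.3. In Akt2 on 1424480_s_at, control replicate 6 read 1960 and the next control array 1640. In Akt1 on 1440950_at, control replicate 4 was highest at 293 and krill replicate 6 lowest at 92.9. In the dim Foxo1 probe set 1456529_at krill replicate 5 read 309, and in the dim Foxo3 probe set 1450236_at control replicate 6 read 96.7.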

How the results depend on the processing

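The count of member probe sets called lower, 15 with all arrays, was 12 to 21 under all other settings but 2: a model term for the spike-ins gave 7, and one for the 3'/5' index gave 0. The count of genes called lower, 8, was 3 and 0 in those fits. In the others it ran from 6, as with quantile normalization, to 10 with arrays scaled on the spike-ins. The 1 probe set called higher became 0 with either of these terms, arrays centred on their medians or scaled on the spike-ins, no mean-variance trend, a constant of 1, quantile normalization, the replicate block, the upper 30% of signal or without krill replicates 2, 4, 5 and 7, and 0 to 2 when 1 array was left out. With the replicate block 15 probe sets and 8 genes were called lower; same-numbered arrays correlated by -0.0311 to 0.0886 and 3 of 14 correlated best with their own number, so the numbers were not used as pairs. The shift of Irs1 minus Irs2 was 1.17 with quantile normalization (exact permutation p = 0.0268, unadjusted), and with 1 array left out it ran from 0.45 to 0.93, the last without krill replicate 3 (exact permutation p = 0.0146, unadjusted). That of Foxo1 minus Foxo3 was -0.55 without the 4 krill arrays. Akt2 turned to 0.24 with the index, 0.07 with the spike-in level and 0.03 without the 4 krill arrays, and Insr to 0.32 when its probe sets were averaged. With arrays scaled on the spike-ins both were called lower, Akt2 at -1.18 and Insr at -1.27 (adjusted p = 0.0161 and 0.00427 in limma). With arrays centred on their medians Insr was called lower at -0.87 (adjusted p = 0.036 in limma), and Akt2 at -0.79 was not (adjusted p = 0.068 in limma). Of 286 values of single genes under other settings 255 kept direction and call, 22 lost the call, 5 gained it and 4 turned. Pik3r1 lost its call without control replicates 1 or 4 or krill replicates 2 or 4, each left out alone (-0.77, -0.76, -0.60 and -0.69). The cause of these changes was not tested. The median change of all probe sets, 0.32, was -0.30 with spike-in scaling, -0.09 with centring, 0.07 with quantile normalization and -0.01 without the 4 krill arrays. Shares of all probe sets called lower are not given here for these other settings. The members' counts in them are therefore not a result about the members alone. Counts of probe sets could not be made where each gene has 1 value.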
